A study of Mus musculus with 5 samples.

Results

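The cytosolic ribosomal protein genes are the genes for the protein parts of the ribosome outside mitochondria. They were picked by symbol: Rpl or Rps with a number and at most a short ending, together with Rplp0, Rplp1, Rplp2 and Rpsa, and without pseudogene symbols and the Rps6k kinases. This gave 83 genes of 30099 symbols, 51 of the large and 32 of the small subunit, and 6 of them are paralogs with a cell-restricted or less known role (Rpl10l, Rpl22l1, Rpl39l, Rpl3l, Rpl7l1 and Rps27l). All libraries listed 82 of the genes, and Rpl10l appeared only in exhausted, with 1 UMI (unique molecular identifier, the tag that counts 1 captured RNA molecule). Femurs were freed of the distal growth plate and the proximal end and digested with enzymes, cells with tdTomato fluorescence were sorted, and their RNA was captured cell by cell on a BD Rhapsody instrument. All mice carried Lepr-cre and R26R-tdTomato, so the reporter marks cells with a history of leptin receptor promoter activity and their descendants. There were 5 libraries, 1 per group. Control mice were 15 weeks old and uninjured, naive mice were 15 weeks old after 1 ablation of the marrow at 13 weeks, and exhausted mice were 15 weeks old after ablations at 9 and 13 weeks. Aged mice were 18 months old and uninjured, and aged-injury mice were 18 months old and 1 week after 1 ablation. The labels name neither the number of animals behind a library nor a batch. Because each group is 1 library, differences between groups could not be tested, and each interval covers counting error only and not the spread between animals. Where 5 values are listed, they follow the order control, naive, exhausted, aged, aged-injury.

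A ribosome has a small subunit, which reads the messenger RNA, and a large subunit, which joins amino acids, and each protein is present as about a single copy per particle, apart from the stalk proteins. Growing cells make ribosomal proteins in step with ribosomal RNA, while maturing red cells and neutrophils stop making them. Messenger RNAs of these genes are known for a C and an unbroken run of pyrimidines (C and T letters) at their start. Through this run mTOR and Larp1 control their translation and stability. In marrow, ribosomal protein genes are known for Diamond-Blackfan anaemia, in which loss of 1 copy of RPS19 and several others harms red cell formation. Reticular stromal cells, which secrete Cxcl12 and Kitl, form the niche of blood stem cells and made up most of the sorted cells.

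The start of a ribosomal protein gene is its common regulatory feature, so starts are shown for some genes with a pyrimidine run at the first base and for genes on which later results turn. Each line gives 30 bases of the coding strand, 5′ to 3′, from RefSeq with the GRCm38.p6 build; the annotated first transcribed base is base 16, and capitals mark the first run of a C and at least 4 further pyrimidines that begins within 10 bases of it. Genes whose first base is a C with at least 4 pyrimidines after it:
Rpl14: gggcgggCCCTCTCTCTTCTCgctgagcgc
Rpl15: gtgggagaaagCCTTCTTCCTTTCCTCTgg
Rpl35: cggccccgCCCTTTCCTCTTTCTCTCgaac
Rplp2: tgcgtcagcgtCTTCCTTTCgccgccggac
Rps6: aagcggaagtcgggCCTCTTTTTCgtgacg
Rps10: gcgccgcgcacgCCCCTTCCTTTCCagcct
Genes on which the comparisons turn, with such a run nearby or none:
Rpl39l: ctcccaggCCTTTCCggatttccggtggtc
Rpl39: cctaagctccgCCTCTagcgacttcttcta
Rps9: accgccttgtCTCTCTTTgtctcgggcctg
Rpl24: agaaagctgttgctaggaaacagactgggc
Rpl10: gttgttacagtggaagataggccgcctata

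These stretches lie at chr9:120571502-120571531 on the plus strand for Rpl14, chr14:18270972-18271001 on the minus strand for Rpl15, chr2:39005117-39005146 on the minus strand for Rpl35, chr7:141447636-141447665 on the plus strand for Rplp2, chr4:86857353-86857382 on the minus strand for Rps6 and chr17:27635230-27635259 on the minus strand for Rps10. The others lie at chr16:10170213-10170242 on the plus strand for Rpl39l, chrX:37085208-37085237 on the minus strand for Rpl39, chr7:3704026-3704055 on the plus strand for Rps9, chr16:55966260-55966289 on the plus strand for Rpl24 and chrX:74270801-74270830 on the plus strand for Rpl10. The table of starts held 63 of the 83 genes. A C followed by at least 4 pyrimidines began at the first base in 13 of the 63 (20.6%), against 3.01% of all 27025 symbols in the table. Such a run began within 10 bases of the start in 61.9% of the genes and in 34.4% of all symbols. CCGGAA, searched on both strands over 250 bases before and 50 after the start, was found in 55.6% of the genes and in 16.7% of all symbols. AAGATGGC, searched in the same way, was found in 9.52% and 3.19%. A match in letters describes these windows and shows no site in use. The starts are annotated ones and were not measured here, so a missing run does not show that the transcripts lack it.

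After filters on genes, UMIs and mitochondrial share, 5242 (naive) to 19497 (aged-injury) cells remained per library, with medians of 6671 (aged) to 9512 (aged-injury) UMIs per cell. From 5 to 16 cell barcodes of a library were also found in another. Cells were placed in classes by the summed level of marker genes, which included no ribosomal protein gene, and 88.7% to 96.5% of cells passed this gate. Aged-injury stood apart from the rest in cell number and in depth, and gave no neutrophil, macrophage or B lineage class of at least 50 cells. The classes are gates and not an annotation by the authors. By fold over other cells the reticular class was led by Esm1, Cbln1, Cxcl12 and Grem1, the osteoblast lineage class by Bglap and Bglap2, and the adipocyte class by Cfd and Cidec. The share of UMIs used below is relative, so a higher share and fewer other transcripts cannot be told apart. Doublets were not removed by a caller, and a class can hold doublets of its own kind.

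Ribosomal protein genes took from 2.16% to 11.9% of UMIs, depending on cell class and library. Among classes of at least 50 cells in a library, granulocyte precursors, which express Mpo and Elane, had the highest share with 11.9% in control and 11.8% in exhausted. B lineage cells followed with 8.54% in control, 8.53% in naive, 9.30% in exhausted and, lowest, 7.60% in aged. Macrophages and monocytes lay at 7.27%, 6.71% and 6.35% in control, naive and exhausted. Endothelial cells had 4.66%, 4.80%, 5.11% and 5.74% in control, naive, exhausted and aged-injury. Osteoblast lineage cells had 4.92%, 4.16%, 5.01%, 4.53% and 4.98% in the 5 libraries. Reticular cells were near the low end with a median of 3.02% over libraries. Erythroid cells ranged from 3.56% in aged to 7.57% in aged-injury, the values of pericyte and smooth muscle cells from 3.0% in exhausted to 6.27% in aged-injury. In summed UMIs neutrophils were lowest, between 2.16% and 2.32% in the 4 libraries with enough cells. By the median share over cells, erythroid cells lay below neutrophils in these libraries. The medians were 0.680% against 1.34% in control, 0.726% against 1.24% in naive, 0.958% against 1.26% in exhausted and 0.728% against 1.32% in aged. Chondrocytes (7.36%) and fibroblasts (4.33%) reached 50 cells only in aged-injury, and adipocytes (5.79%) only in naive, so for these the class and the library cannot be told apart. Without aged-injury the median over libraries was 2.95% for reticular cells, 4.73% for osteoblast lineage cells, 4.80% for endothelial cells and 5.35% for erythroid cells.

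Within 1 library, the gap between granulocyte precursors and the neutrophils they become was carried by the whole set. In control, all 80 genes with at least 5 CPM (counts scaled to 1000000 UMIs) in either class were at least 25% higher in precursors, against 58.9% of all 10598 genes measured, with a median log2 ratio of 2.49. In exhausted the median was 2.54 with 80 of 80 higher. The narrowest gap was that of Rps9, at 0.92 on the log2 scale in control, and the widest was that of Rpl13a at 3.92. B lineage cells against reticular cells gave 80 of 81 genes higher in control, against 55.3% of all genes, with a median log2 ratio of 1.54. The exception was Rpl39l, with 2.21 CPM in B lineage and 40.4 CPM in reticular cells. This median was 1.35 in aged, 1.46 in naive and 1.52 in exhausted. With TMM scaling, which centres the typical gene, the median was 1.82 for precursors against neutrophils and 0.83 for B lineage against reticular cells.

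The share was lower in later than in early stages of the erythroid class in the 5 libraries, and in the last than in the first stage of the neutrophil class in the 4 libraries with enough neutrophils. Erythroid cells with globin under 10% of UMIs had 13.3%, 12.04%, 13.6%, 11.3% and 12.2% of UMIs from ribosomal protein genes in the 5 libraries. Those with 10% to 50% globin had between 2.58% (aged-injury) and 3.35% (exhausted). Those with 50% to 80% globin had between 0.383% (aged) and 0.512% (aged-injury). The ranges of the 3 strata over the 5 libraries did not overlap. Globin is itself part of the total, so the share was also taken of UMIs that were not globin. On that base control had 13.6% under 10% globin, 4.46% at 10% to 50% and 1.21% at 50% to 80%, in the same order. The first stratum held from 24 (aged) to 83 (exhausted) cells. Its median share over cells was 10.6%, 11.1%, 12.5%, 2.54% and 11.0% in the 5 libraries. The 11.3% of aged is thus a share of summed UMIs and not that of its typical cell.

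Neutrophils were ordered by Camp, Ngp and Ltf, genes of granules made before the last stages, against Retnlg, Cxcr2 and Mmp9 of mature cells. Where the first 3 made up at least 90% of the UMIs of the 6 genes, ribosomal protein genes took 2.79%, 2.89%, 2.65% and 2.37% in control, naive, exhausted and aged. Where they made up under 50%, the shares were 1.54%, 1.80%, 1.49% and 1.43%. Between these limits the shares were 2.31%, 1.81%, 2.35% and 2.53%, so aged had its highest value there and naive was level with its last stratum. Median UMIs per cell were lower alongside, with 13231 in the first and 6352 in the last stratum of control. B lineage cells with Vpreb1, a surrogate light chain gene of precursors, and no Ms4a1 UMI had 10.5%, 11.2% and 10.8% in control, naive and exhausted. Cells with Ms4a1, the gene for CD20, and no Vpreb1 UMI had 8.08%, 8.02% and 8.16%. In aged the values were 9.72% and 7.31%, the first from 13 cells. Cells with Vpreb1 were also deeper, with median UMIs of 14092 against 5115 in control, 10381 against 5009 in naive and 10004 against 4065.5 in exhausted. The part of depth was not tested.

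**Figure D1:**
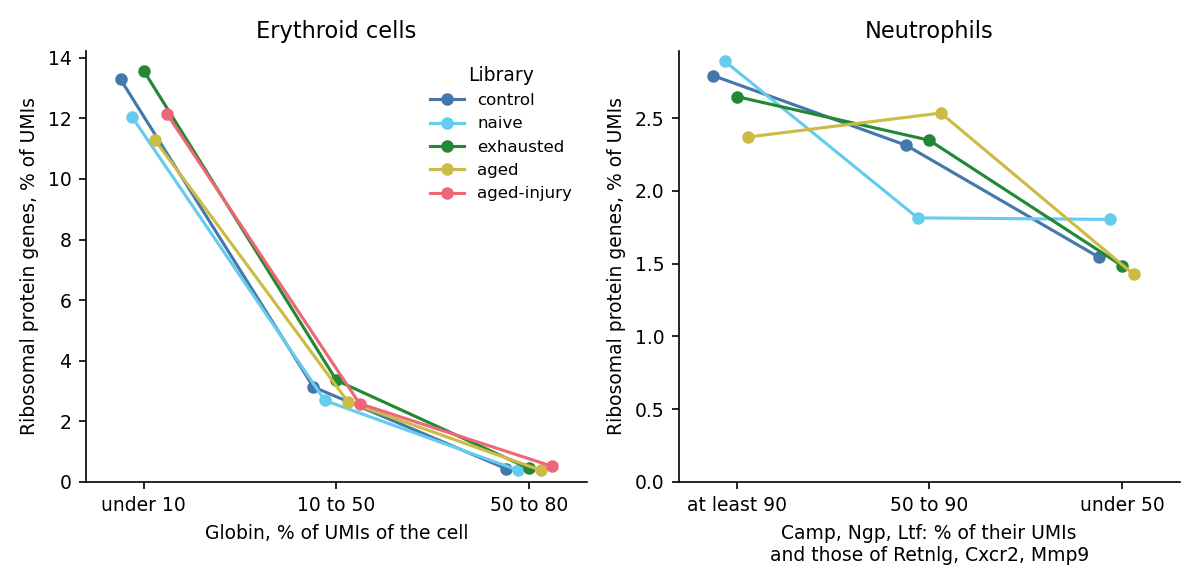
Share of UMIs from ribosomal protein genes (y axis, percent) in erythroid cells by globin share (left) and in neutrophils by the share of granule genes (right), 1 line per library. In summed UMIs of erythroid cells the 5 libraries lie between 11.3% and 13.6% under 10% globin and under 0.6% at 50% to 80% globin. The aged point under 10% globin comes from 24 cells with a median share over cells of 2.54%.

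Levels of the genes differed widely from each other even though the ribosome holds most of the proteins in equal number. In reticular cells of control the standard deviation of log2 CPM over 81 genes was 1.19, and it was 1.14 to 1.28 in the other libraries. Per kilobase of transcript (GENCODE M21), Rps27 led with 1958 CPM per kb, followed by the stalk gene Rplp1 with 1533, Rps29 with 1404, Rps28 with 1404 and Rps12 with 1282. Lowest of the 81 on the same scale were Rpl7l1 with 10.3, Rps10 with 10.7, Rpl13a with 24.8, Rpl39l with 50.2 and Rpl24 with 82.0 CPM per kb. The median was 336 CPM per kb for the large and 493 for the small subunit. On this scale the spread was 1.35 and not smaller than per UMI, and 7 of the 10 highest genes by CPM were also among the 10 highest per kb. Over these genes in 1 library, Spearman's rho of CPM with transcript length was 0.07 and with the number of pseudogene copies 0.18.

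Several genes with many UMIs in control, not corrected for length, are given in every library. In reticular cells Rplp1 had 765, 724, 747, 678 and 1031 CPM. Rps12 had 749, 823, 858, 694 and 1167 CPM, Rps27 had 675, 620, 740, 696 and 978 CPM, and Rps9 had 663, 734, 809, 661 and 998 CPM. For Rps12 and Rps9 aged-injury was highest and exhausted next. For Rplp1 and Rps27 the naive value lay below that of control.

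The stalk, which recruits elongation factors, is built of Rplp0 and pairs of Rplp1 and Rplp2. Rplp2 had 359, 364, 400, 346 and 548 CPM and Rplp0 had 412, 471, 469, 383 and 451 CPM. Rplp1 and Rplp2 were thus highest in aged-injury, with log2 ratios against aged of 0.60 and 0.66, while Rplp0 was highest in naive and had 0.24. Rpsa, a small subunit protein first described as a laminin receptor, had 306, 296, 296, 292 and 404 CPM. Outside aged-injury its levels lay between 292 and 306 CPM.

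Genes mutated in Diamond-Blackfan anaemia or tied to the p53 checkpoint differed among themselves. Rps19 had 158, 171, 161, 141 and 309 CPM in reticular cells. Rpl5 had 486, 512, 551, 515 and 720 CPM, and Rpl11, which with Rpl5 and the small 5S RNA binds Mdm2, had 136, 149, 143, 135 and 218 CPM. Rps26 had 645, 778, 771, 651 and 841 CPM, and Rps24 had 575, 590, 673, 585 and 753 CPM. Rpl35a had 378, 380, 384, 400 and 417 CPM. Against aged, aged-injury was 1.13 higher on the log2 scale for Rps19, 0.69 for Rpl11, 0.48 for Rpl5 and 0.06 for Rpl35a.

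Among the paralogs, Rpl39l was the most uneven over cell classes. Rpl39l, known from testis, had 40.4, 49.5, 58.9, 36.8 and 60.7 CPM in reticular cells, and 309 CPM in naive adipocytes. Osteoblast lineage cells had 41.2 to 64.5 CPM of Rpl39l. Levels were lower in blood cells and endothelium: Rpl39l was at 0 to 2.21 CPM in B lineage cells and at 0 to 4.42 CPM in endothelial cells. Macrophages and monocytes had a median of 1.90 CPM over libraries, with 12.2 CPM in naive as an exception. Neutrophils had 0.63 to 3.0 CPM, and erythroid cells had 1.54 to 4.63 CPM outside aged-injury and 16.9 CPM in aged-injury. They rest on 0 to 6 UMIs in B lineage cells, 1 to 15 in neutrophils, 0 to 29 in endothelial cells and 7 to 37 in erythroid cells of a library. RNA from other cells cannot be told apart from expression at these levels.

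Rps27l, a paralog of Rps27 known as a p53 target, had 236 CPM in naive adipocytes and 61.1, 62.9, 65.6, 56.2 and 90.3 CPM in reticular cells. Relative to all ribosomal protein UMIs, Rps27l was lowest in B lineage cells (11.3 per 10000) and highest in adipocytes (40.8 per 10000). Rpl22l1 had 141, 124, 143, 127 and 171 CPM in reticular cells, and its share was 44.1 per 10000 there against 20.9 per 10000 in macrophages and monocytes. Rpl7l1 had 26.9, 35.8, 33.6, 27.7 and 31.6 CPM in reticular cells. Rpl3l, known from striated muscle, was found as traces, with 2.95 to 6.92 CPM in B lineage cells and 3.27 to 3.63 CPM in neutrophils of control, naive, exhausted and aged. In reticular cells Rpl3l had 0.07 to 0.34 CPM.

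Most genes kept a similar share of the ribosomal protein UMIs in every class. Of 80 genes with at least 50 CPM in some class, 60 had a range over classes under 1 on the log2 scale, with a median range of 0.71. Without aged-injury, over 10 classes, 65 of the 80 did and the median was 0.62. Rps9 stood out in neutrophils, with 652 per 10000 ribosomal protein UMIs against 218 in erythroid cells. In CPM, Rps9 had 1452, 1478, 1461 and 1321 in neutrophils of control, naive, exhausted and aged, above its 663, 734, 809 and 661 in reticular cells, while the median of the set in neutrophils against reticular cells was −0.40 on the log2 scale in control. Rpl13a had the reverse pattern, with 10.9, 14.1, 12.3 and 13.2 CPM in neutrophils and 128, 140, 156 and 140 CPM in B lineage cells of these libraries. The low share in neutrophils also held for Rpl10a, at 20.8 per 10000 against 54.4 in osteoblast lineage cells. For Rpl24 the range over classes was 2.02 with aged-injury and 0.92 without it, and for Rpl10 it was 1.57 and 0.79, so the wide ranges of these genes rest on that library.

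**Figure D2:**
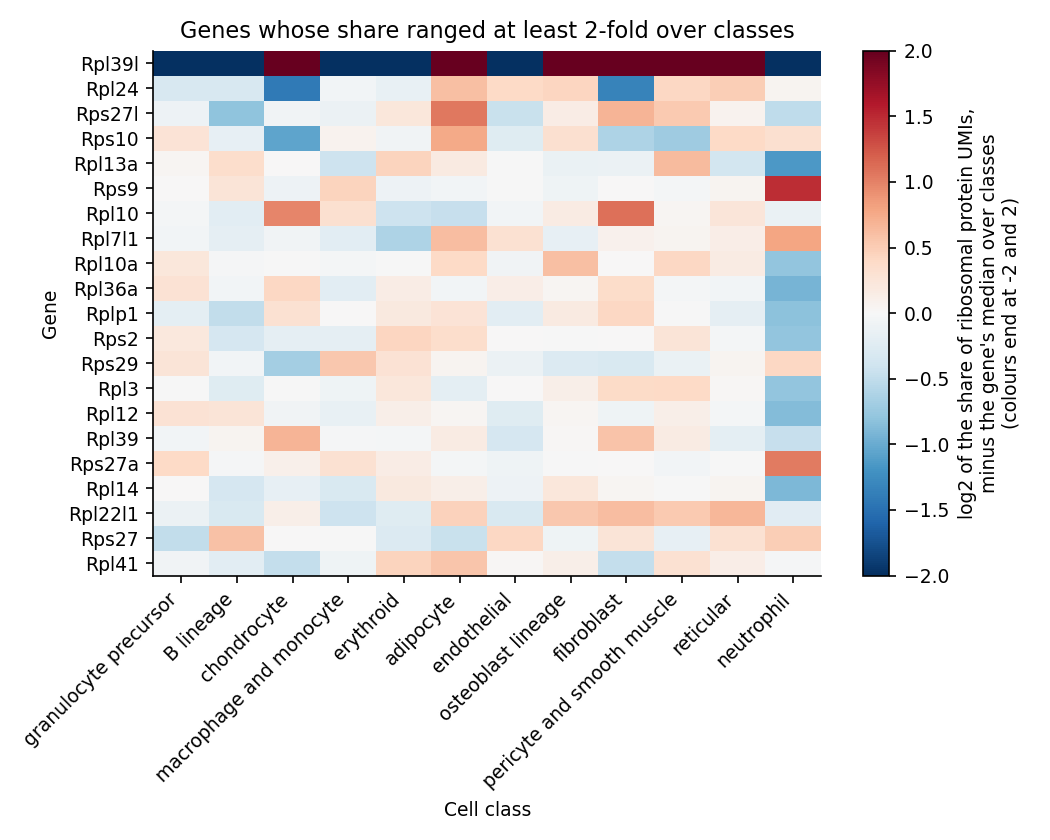
Genes whose share of the ribosomal protein UMIs ranged at least 2-fold over cell classes (y axis, 21 genes) by class (x axis), coloured by the log2 of the share minus the gene's median over classes. Rpl39l is low in blood classes and in endothelium, where it had 0 to 4.42 CPM, colours end at −2 and 2, and Rps9 is high in neutrophils with 652 per 10000.

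Between libraries, reticular cells had shares of 2.88%, 3.02%, 3.17%, 2.87% and 3.94%. The counting intervals were narrow, for example 3.93% to 3.94% in aged-injury and 2.87% to 2.88% in aged, so these differences exceed counting error, and the spread between animals is unknown. The share also differed with UMIs per cell, as given by depth band further on. Aged-injury lay above the others, which ran from 2.87% to 3.17%. Over all cells the shares were 3.81%, 4.29%, 5.31%, 3.14% and 4.63%, an order that differs from that in reticular cells, with exhausted first. Aged-injury was also an extreme in other measures of reticular cells, while the other libraries did not follow the order of the share: Malat1, a nuclear RNA, had 3593, 5531, 4233, 4313 and 2567 CPM, the median mitochondrial share was 6.27%, 7.93%, 7.36%, 7.42% and 5.48%, and median UMIs per cell were 8359, 7041, 6658.5, 6696.5 and 9204. Aged-injury was lowest in the first 2 and highest in the third. Summed erythroid markers in the reticular class ran at 1566, 370, 1556, 870 and 202 CPM, and summed neutrophil markers at 397, 202, 267, 159 and 137 CPM, with none of the 9 and 10 markers at 0. Their part in the shares was not tested.

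The comparisons between libraries give the ratio of CPM of each gene in reticular cells, for 81 genes with at least 5 CPM in either library, and count those at least 25% higher or 20% lower. Rpl10l and Rpl3l did not reach 5 CPM. The comparisons share libraries and are not independent. In naive against control the median log2 ratio was 0.05, with 5 genes higher and 0 lower, against 28.5% of all genes higher and 10.2% lower. The median of all genes was 0.13, so the set was shifted less than the typical gene, and with TMM scaling, which shifts this comparison by 0.15, the median of the set was −0.10. With no cell filter the median was −0.03. In exhausted against control the median was 0.13, with 3 genes higher and 0 lower, against 13.8% higher and 8.91% lower of all genes.

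In exhausted against naive the median was 0.06, with 0 higher and 1 lower, against 5.24% and 17.3% of all genes, and it was −0.06 when cells were classed by clusters. In aged against control the median was 0.00, with 0 higher and 0 lower, against 5.98% and 5.85% of all genes. In these comparisons few of the 81 genes passed these limits. In aged-injury against aged the median was 0.46, with 54 genes higher and 2 lower, against 25.6% higher and 10.8% lower of all genes, whose median was 0.12. Against naive it was higher too: the median was 0.37, with 46 higher and 3 lower, against 14.2% higher and 19.8% lower of all genes, whose median was −0.05. TMM scaling shifts that comparison by −0.18 and gives a median of 0.55 for the set. The large and small subunit had medians of 0.46 and 0.42 in aged-injury against aged.

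**Figure D3:**
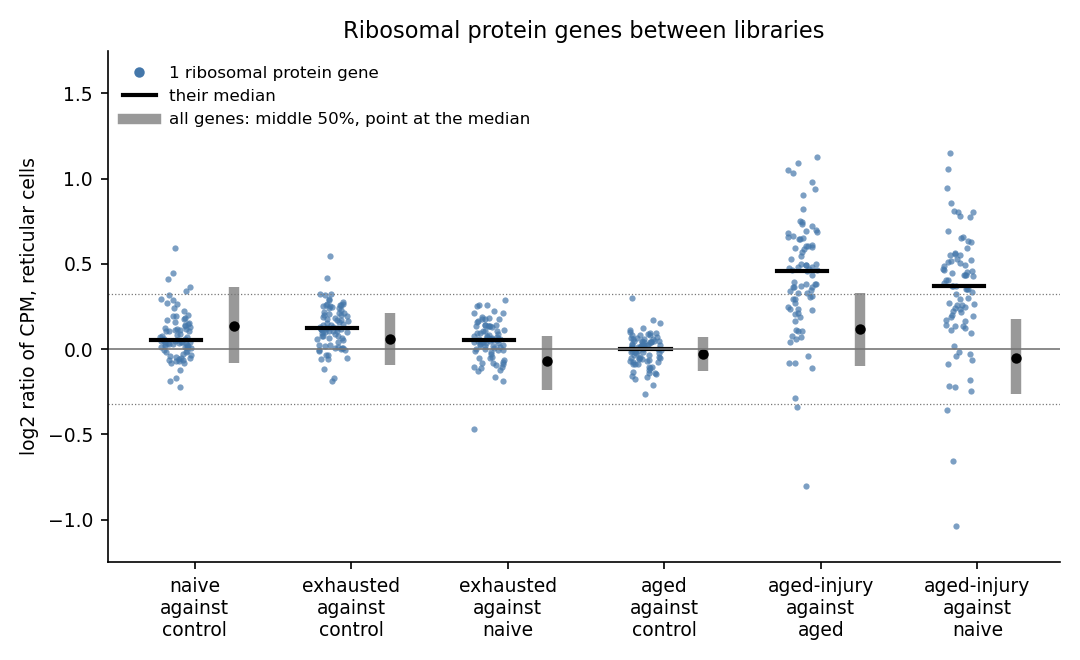
Log2 ratio of CPM in reticular cells (y axis) for each ribosomal protein gene (points, black bar at their median) in the 6 comparisons (x axis), beside the middle 50% of all genes (grey, point at the median). The median is 0.46 in aged-injury against aged and 0.00 in aged against control, while that of naive against control (0.05) turns to −0.10 with TMM scaling.

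Single genes differed between the other libraries by more than counting error. Rpl29, a heparin-binding large subunit protein, had 121, 182, 132, 148 and 156 CPM in reticular cells. Its log2 ratio was 0.59 in naive against control, −0.47 in exhausted against naive, and was 0.30 in aged against control. Rpl30 had 237, 260, 317, 264 and 541 CPM, with 0.42 in exhausted against control. Rpl13a had 26.0, 35.4, 31.1, 29.2 and 40.5 CPM, with 0.45 in naive against control, and Rpl10a had 111, 143, 128, 104 and 167 CPM. Rpl23 had 427, 503, 533, 445 and 680 CPM, with 0.32 in exhausted against control, and Rps28 had 550, 563, 674, 555 and 870 CPM.

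On the low side, Rps2 had 411, 394, 361, 342 and 441 CPM, with −0.19 in exhausted against control and −0.26 in aged against control. Rpl31 had 452, 433, 401, 390 and 497 CPM, with −0.17 and −0.21 in the same pair of comparisons. Rps21 had 191, 164, 184, 195 and 210 CPM, with −0.22 in naive against control. Among the paralogs, Rpl39l gave the highest ratio of exhausted against control, at 0.54. The spread of the ratios over the 81 genes was 0.14 in naive against control, 0.13 in exhausted against control, 0.12 in exhausted against naive and 0.09 in aged against control, where counting alone gives 0.02 to 0.03.

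In aged-injury the spread was larger, 0.33 against aged and 0.35 against naive, so the genes were not shifted by 1 common factor. Rps19, the gene most often mutated in Diamond-Blackfan anaemia, had 309 CPM against 141 in aged, a log2 ratio of 1.13 with a counting interval of 1.09 to 1.16. Rpl10, which completes the large subunit late in its assembly, had 232 against 109 CPM (1.09), and Rpl39, in the wall of the exit tunnel, had 974 against 470 CPM (1.05). Rpl30 had 1.03 and Rps18, with 502 against 254 CPM, had 0.98. On the other side, Rpl24, which is mutated in the Belly spot and tail mouse, had 33.1 CPM against 57.8 in aged, 55.5 in control, 67.8 in naive and 64.1 in exhausted. Its log2 ratio was −0.81 with an interval of −0.87 to −0.74.

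Rps10, which is ubiquitinated when ribosomes collide, had 5.54 CPM against 7.01 in aged (−0.34), 6.89 in control, 8.73 in naive and 8.27 in exhausted. Rpl41, the smallest of the proteins, had 448 CPM against 485 in aged (−0.11). For Rpl24, Rps10 and Rpl41 aged-injury was thus the lowest of the 5 libraries. For Rps19, Rpl10, Rpl39, Rpl30 and Rps18 aged-injury was the highest of the 5 libraries.

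The same genes deviated from the common shift in other cell classes of aged-injury. After subtraction of the median of the set, Rpl24 was at −1.26 in reticular, −1.35 in osteoblast lineage and −1.33 in erythroid cells against aged, and at −1.66 in endothelial cells against naive. Without its listed copy, treated further on, Rpl10 was at 0.64, 0.86, 0.85 and 0.73 in these 4 contrasts. Spearman's rho of these deviations with those of reticular cells was 0.83 over 78 genes in erythroid and 0.79 over 79 genes in osteoblast lineage cells for aged-injury against aged. For aged-injury against naive it was 0.92 in endothelial, 0.86 in erythroid and 0.92 in osteoblast lineage cells. In the other comparisons it ranged from 0.21 to 0.71. These values describe genes of classes that share a library, its preparation and its sequencing. Whether the unevenness belongs to the mice or to the library cannot be told apart with 1 library.

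**Figure D4:**
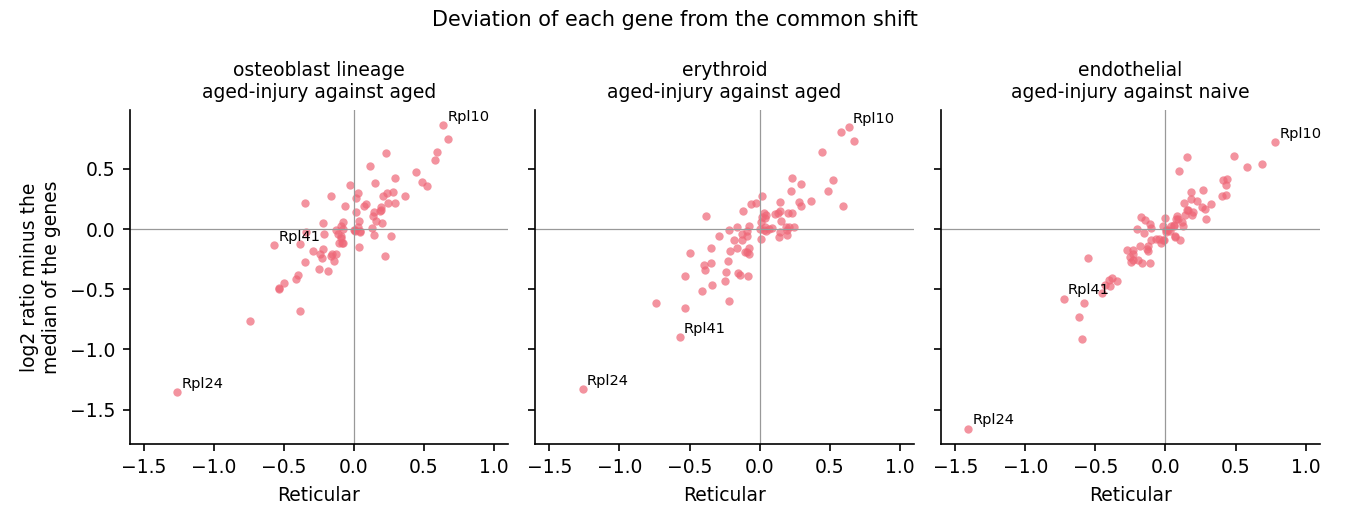
Log2 ratio of each ribosomal protein gene minus the median of the set in reticular cells (x axis) and in another class (y axis), for aged-injury against aged in osteoblast lineage and erythroid cells and against naive in endothelial cells. Rpl24 is low in all 3 panels (−1.26 in reticular cells against aged) and Rpl10 is high (0.64).

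Some symbols share sequence or exons with these genes, and those given here were chosen after their values were seen. Rpl10-ps3, a listed pseudogene symbol of Rpl10, had 43.2, 37.7, 40.6 and 41.3 CPM in control, naive, exhausted and aged reticular cells and 20.4 CPM in aged-injury, so it was lowest where Rpl10 was highest. Added together, Rpl10 and Rpl10-ps3 had 150 CPM in aged and 252 CPM in aged-injury, so the log2 ratio was 0.75 in place of 1.09. In other classes the same sum gave 0.71 in place of 0.96 (osteoblast lineage) and 1.80 in place of 1.99 (erythroid). Rpl9-ps6 had 26.2 CPM in aged and 16.6 CPM in aged-injury, while Rpl9 had 522 and 794 CPM. The copy symbols of Rps18 had 3.46 and 5.01 CPM, beside 254 and 502 CPM of Rps18. The division of UMIs between Rpl10 and its copy thus differed between these libraries, and its part in the other ratios was not tested. Gm28037, which overlaps exons of Rpl24 on the same strand, had only 0.57 CPM in aged and 0.37 CPM in aged-injury, and with it added the ratio of Rpl24 was −0.80. Rps10 shares exons in GENCODE M21 with a read-through gene, which was not analysed here. Of the coding sequences, 76 of 83 had at least 1 pseudogene of at least 95% identity over 80% of the length, up to 56 for Rpl21. By name, 0 of these 555 distinct copies were listed in the data, so UMIs on them could not be counted. The 6 listed pseudogene symbols held 0.181% as many UMIs as the genes, which does not measure those copies.

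The higher share of aged-injury reticular cells held in most but not all strata. In cells with 4000 to 8000 UMIs it was 3.36% against 2.76% in aged, at 8000 to 16000 UMIs 3.65% against 2.99%, and at 16000 UMIs or more 4.83% against 3.09%. Under 4000 UMIs the order turned, with 1.37% in aged-injury and 2.22% in aged. In control the 4 bands had 2.22%, 2.95%, 2.92% and 2.88%, so the band under 4000 UMIs was lower there too. Clusters of cells made without these genes were compared where both libraries had at least 50 reticular cells. There aged-injury was higher than aged in 10 of 10 clusters, by 0.25 to 0.72 on the log2 scale with a median of 0.32. Over all reticular cells this log2 ratio of the share was 0.46. Left out for few aged cells were, among others, cluster 6, with 1629 cells in aged-injury and 49 in aged, and cluster 10, with 1104 and 3. The 643 reticular cells of aged-injury in cluster 10 had 6.65%. Aged-injury was higher than naive in 9 of 10 clusters. Naive was higher than control in 8 of 9 clusters, exhausted higher than control in 5 of 8, exhausted higher than naive in 2 of 8 and aged higher than control in 7 of 10.

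Reticular cells with transcripts of dividing cells had a higher share of summed UMIs in each of the 5 libraries, with the smallest gap in control. Among cells of 8000 to 32000 UMIs, those with at least 5 UMIs from a list of genes of dividing cells (Mki67 and Top2a among them) had 3.65%, 3.63%, 3.21% and 4.66% in naive, exhausted, aged and aged-injury. Those with 0 UMIs from the list had 3.02%, 3.07%, 2.97% and 3.58%. In control the values were 2.92% and 2.88%, while the median over cells had the other order, with 2.76% and 2.83%. Cells with division transcripts were also deeper, with medians of 16873 against 10728 UMIs in aged-injury and 13965.5 against 10972 in control. Without division transcripts aged-injury remained the highest of the 5 libraries.

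Other classes differed between libraries in their own ways. In summed UMIs of erythroid cells aged was lower than control, with 3.56% against 5.84% and a median log2 ratio of −0.74. At least 20% lower were 79 of 80 genes, against 50.5% of all genes, whose median was −0.33. The typical cell was not lower: the median share over erythroid cells was 0.728% in aged and 0.680% in control. The mean over cells was 1.98% and 2.67%. Aged-injury was higher than aged there, with 7.57%, a median of 1.14 and 78 of 81 genes higher, against 69.1% of all genes. The median of all genes was 0.80 in that comparison, and TMM scaling shifts it by 0.63. Of UMIs that were not globin the erythroid shares were 8.30%, 6.79%, 8.58%, 5.34% and 8.91%. Cells under 10% globin were 63 of 388 in control, 24 of 226 in aged and 50 of 188 in aged-injury, so the mix of stages moved with these totals, and its part was not tested. Pericyte and smooth muscle cells of aged-injury had 6.27% of summed UMIs against 3.29% in naive. The median log2 ratio was 0.92, with 76 of 81 genes higher, against 26.8% of all genes. The gap was smaller over single cells: the mean share was 4.67% against 3.05% and the median share 3.68% against 2.38% of these cells. Their median UMIs were 11085 and 7199 and Malat1 was at 1648 and 6417 CPM in aged-injury and naive, whose part was not tested. Osteoblast lineage cells were lower in naive than in control, with a median of −0.22, where the median of all genes was −0.04. At least 20% lower were 24 of 81 genes, near the background of 25.2% of all genes, so this count is no result about the set. Below 0 on the log2 scale were 77 of the 81. The lower value came from cells of 4000 to 8000 UMIs (3.01% against 4.85%) and of 8000 to 16000 UMIs (2.98% against 4.74%). At 16000 UMIs or more naive had 5.34% and control 5.13%, and under 4000 UMIs naive was also higher, with 4.49% against 3.70% in 23 and 16 cells. Their median mitochondrial share was 15.4% in naive and 10.2% in control, and its part was not tested.

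Genes of the same system outside the symbol rule were looked at as lists. Fau, whose product includes a small subunit protein, had 255, 292, 305, 273 and 335 CPM in reticular cells. Rack1, a scaffold on the small subunit, had 156, 174, 171, 145 and 321 CPM, a log2 ratio of 1.14 in aged-injury against aged.

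Of 7 elongation factors, 3 were at least 25% higher in aged-injury against aged and 0 lower, led by Eef1b2 at 0.82. Of 29 initiation factors 12 were higher and 0 lower, led by Eif3f, with 177 against 86.3 CPM, at 1.04. Of 76 mitochondrial ribosomal protein genes 22 were higher and 1 lower, with a median of 0.18, beside 25.6% of all genes higher. Ribosome assembly factors had 6 of 35 higher and 0 lower with a median of 0.07, and snoRNA host genes had 6 of 11 higher, led by Snhg6 at 1.1. In naive against control the assembly factors had 18 of 35 higher and 1 lower, with Wdr12 at 0.86, against 28.5% of all genes higher. Myc, which drives ribosome production, had 418, 271, 333, 442 and 442 CPM in the same order, a log2 ratio of −0.62 in naive against control. Among genes that control the synthesis of ribosomal proteins, 3 of 13 were higher and 0 lower in aged-injury against aged, and Larp1 had −0.11.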

How the data were processed

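RNA of sorted single cells was measured in 5 libraries, 1 per group. The authors deposited raw counts of UMIs per gene and cell as matrices; the submitters' processing notes name Seurat 5.1 and GRCm39, and no source used here names the aligner or counter. The cell filter asked for 500 genes, 1000 UMIs and under 25% mitochondrial UMIs. Each cell went to the class with the highest mean marker score if that score was at least 0.25 and led the next class by at least 0.1; no ribosomal protein gene entered the gate or its scaling. No doublet caller was used. Counts were summed per library and class, for classes of at least 50 cells. Shares carry exact Clopper-Pearson 95% intervals, and ratios of CPM carry conditional binomial ones; both cover counting error only. A gene was measured with at least 5 CPM in either group and counted as different when at least 25% higher or 20% lower. The genes named are the extremes of each comparison, members of the subunits with known roles, and paralogs. Genes, markers and lists were chosen with earlier results of these data known. Starts came from RefSeq (GRCm38.p6), and transcript lengths and pseudogenes from GENCODE M21. Protein identity was not analysed here, and some genes of the set are not reported here. The ratio and interval code was tested on simulated data. Python 3.11.15, numpy 2.4.6, scipy 1.17.1, pandas 2.3.3, leidenalg 0.10.2, igraph 0.11.9 and matplotlib 3.10.9 were used.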

Additional observations from a re-analysis of the deposited data

Results flagged for a closer look

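The log2 ratio of the share of ribosomal protein UMIs between an ablated and an uninjured library had opposite signs in young and aged mice for 2 cell classes. In osteoblast lineage cells it was −0.24 in naive against control and 0.14 in aged-injury against aged. The second sign did not hold over depth: aged-injury had 4.26% against 3.28% in aged at 4000 to 8000 UMIs, 4.67% against 4.66% at 8000 to 16000, 5.13% against 6.03% at 16000 or more (12 cells in aged) and 1.97% against 4.46% under 4000. In erythroid cells the ratio was −0.27 and 1.09. Within globin strata the shares of summed UMIs in aged-injury and aged were closer. They were 12.2% against 11.3% under 10% globin, 2.58% against 2.64% at 10% to 50% and 0.512% against 0.383% at 50% to 80%. The median over cells under 10% globin was not close, with 11.0% against 2.54%. Cells under 10% globin were 50 of 188 and 24 of 226. For single genes in reticular cells, Rpl24 had a log2 ratio of 0.29 in naive against control and −0.81 in aged-injury against aged, and Rps10 had 0.34 and −0.34. These differences were not tested, since each group is 1 library. The naive mice were taken 2 weeks after surgery and the aged-injury mice 1 week after it, so age and time after surgery cannot be told apart.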

How the results depend on the processing

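No paired analysis was possible because each group has 1 library, and for the same reason no replicate could be left out. Of the values recomputed, 105 stayed close to those reported, 85 moved beyond counting error or 1.5-fold in count, and 3 changed sign. A change of sign was counted only where the interval of the reported median did not span 0. That of aged against control with no cell filter was therefore not among the 3. The reticular share, in the order control, naive, exhausted, aged and aged-injury, was 2.93%, 3.28%, 3.35%, 3.0% and 3.98% with the stricter cell filter, 2.84%, 2.81%, 3.04%, 2.77% and 3.92% with none, and 2.89%, 2.95%, 3.19%, 2.89% and 3.76% with the wider gate margin. It was 3.09%, 3.29%, 3.43%, 3.11% and 4.20% without mitochondrial UMIs, 2.77%, 2.72%, 3.0%, 2.67% and 3.35% as a mean over cells, and 2.92%, 3.07%, 3.22%, 2.91% and 4.0% with the list of ribosomal proteins outside the symbol rule added. In cells of 4000 to 12000 UMIs it was 2.96%, 2.75%, 2.96%, 2.88% and 3.48%, and at 8000 to 16000 UMIs, added after seeing the data, 2.92%, 3.08%, 3.24%, 2.99% and 3.65%. From clusters it was 3.23%, 3.14%, 2.86% and 4.39% in the libraries other than control. Aged-injury was highest in each of these settings.

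The median log2 ratio of naive against control was −0.035 with no cell filter and −0.10 with TMM scaling, 0.15 with the stricter filter, 0.16 from clusters and 0.015 with the wider margin; the genes at least 25% higher then numbered 3, 1, 10, 11 and 3, and 1 at 1.5-fold. For exhausted against control it was 0.18 (10 genes) with the stricter filter, 0.081 with none and 0.075 with TMM; the count was 5 without mitochondrial UMIs, 5 per non-member UMI and 0 at 1.5-fold. For exhausted against naive it was −0.057 from clusters, 0.015 with the stricter filter, 0.10 (1 gene) with none, 0.094 with the wider margin and 0.15 (4 genes) with TMM. For aged against control it was 0.041 (1 gene) with the stricter filter, −0.029 with none and 0.032 (1 gene) with TMM, and 1 gene passed with no filter on low genes. For aged-injury against aged it was 0.50 with no cell filter, 0.60 from clusters and 0.34 with the wider margin, and 27 genes passed 1.5-fold. For aged-injury against naive it was 0.26 with the stricter filter, 0.47 with none and 0.55 with TMM, and 15 genes passed 1.5-fold. Granulocyte precursors against neutrophils gave 2.24 from clusters, 2.63 per non-member UMI and 1.82 with TMM, and B lineage against reticular cells 1.63 per non-member UMI and 0.83 with TMM. The cause of these changes was not tested. Numbers of genes in other settings or at 1.5-fold were not set beside the same number over all genes. An excess over the background cannot be read from them.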
